A study of Mus musculus with 3 samples.

Results

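The TGF-beta and activin family was followed through 10 genes, chosen by gene symbol, among the 56748 genes of the count table. They comprised 6 ligand genes (Inhbb, Inhba, Tgfb1, Tgfb2, Tgfb3 and Gdf15), the antagonist genes Fst and Fstl3, and the receptor genes Acvr2a and Tgfbr1. Each symbol was found 1 time, and all 10 genes had enough counts to be compared in every pair of libraries. RNAseq was performed on adult ventricular cardiomyocytes (ACMs), the contractile cells of the heart, isolated from wild-type mice 8 to 10 weeks old and cultured in serum-free medium. One culture condition received vehicle (0.1% BSA), one received mouse oncostatin M (OSM) at 10 ng/mL and one received human interleukin-6 (IL-6) at 10 ng/mL, each for 16 h. OSM and IL-6 are cytokines that signal through gp130. RNA samples were pooled before sequencing, so each condition is 1 library, and the number of hearts behind a library is not given. Differences below thus have no replicate check within these data. Of the genes named below, the paper measured Thbd and Timp1 by qPCR in replicate ACM samples. It reports both raised by OSM in control genotypes and not in ACMs lacking Jak1. No family member was among its qPCR targets in ACMs. The IL-6 was the human protein on mouse cells, which limits that library as a model of the mouse cytokine.

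Ligands of this family are secreted dimers. A TGF-beta or activin dimer binds a type II receptor, which recruits and phosphorylates a type I receptor, and the type I receptor phosphorylates SMAD2 and SMAD3, which enter the nucleus with SMAD4. Follistatin and follistatin-like 3 are secreted proteins that bind activins and keep them from their receptors. In the heart, TGF-beta is best known for turning fibroblasts into matrix-producing cells, and GDF15, a distant relative whose receptor GFRAL sits in the hindbrain, is a circulating marker of cardiac stress.

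The activin subunit genes Inhbb and Inhba, and the ligand genes Tgfb1 and Gdf15, are the members on which the results turn, and the 250 bases before the canonical start of each are shown on the gene's own strand (GRCm39, GENCODE M39), with every CpG dinucleotide in capitals.
Inhbb, chr1:119350022-119350271, minus strand: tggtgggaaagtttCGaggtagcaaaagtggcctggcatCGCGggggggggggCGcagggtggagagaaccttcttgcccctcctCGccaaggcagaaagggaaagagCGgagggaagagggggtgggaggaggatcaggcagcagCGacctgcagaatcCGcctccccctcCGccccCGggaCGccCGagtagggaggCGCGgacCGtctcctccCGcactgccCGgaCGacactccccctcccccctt
Inhba, chr13:16188733-16188982, plus strand: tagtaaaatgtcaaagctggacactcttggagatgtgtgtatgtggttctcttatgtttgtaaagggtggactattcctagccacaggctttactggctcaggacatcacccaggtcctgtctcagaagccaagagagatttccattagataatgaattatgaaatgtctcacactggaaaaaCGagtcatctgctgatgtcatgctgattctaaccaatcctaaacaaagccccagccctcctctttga
Tgfb1, chr7:25386140-25386389, plus strand: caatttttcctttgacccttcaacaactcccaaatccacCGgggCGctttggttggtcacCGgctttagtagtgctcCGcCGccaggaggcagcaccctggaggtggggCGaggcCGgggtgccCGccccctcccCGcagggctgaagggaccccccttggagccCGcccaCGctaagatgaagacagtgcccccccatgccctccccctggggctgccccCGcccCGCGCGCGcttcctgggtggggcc
Gdf15, chr8:71085112-71085361, minus strand: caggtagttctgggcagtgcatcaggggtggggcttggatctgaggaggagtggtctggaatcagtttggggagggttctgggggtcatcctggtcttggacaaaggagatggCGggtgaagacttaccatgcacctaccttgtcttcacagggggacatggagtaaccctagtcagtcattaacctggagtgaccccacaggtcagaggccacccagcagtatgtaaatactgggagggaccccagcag
The Inhbb window holds 18 CpG and the Tgfb1 window 16, above 79.7% and 74.8% of the 21770 windows of protein-coding genes. The Inhba and Gdf15 windows hold 1 CpG each, more than 7.39% of all windows. The Inhba window lies inside the gene as deposited, which begins at base 16186436, upstream of the canonical start, so its CpG number holds for the canonical start and the sequence before the deposited one was not examined. Among the other members, the CpG number ran from 7 (Tgfb2) to 30 (Fst). The paired half-sites bound by STAT factors, TTCNNNGAA (its own reverse complement), were in 0 of the 10 members' windows and in 7.70% of all windows. The short SMAD element CAGAC, searched on both strands, was in the windows of Acvr2a, Fstl3, Gdf15, Tgfb2 and Tgfbr1, that is 5 of 10, and in 41.3% of all windows. A TATAAA box, on either strand, was in those of Fstl3 and Tgfb3 and in 11.9% of all windows. These matches describe the letters of a short window and not the binding of a factor.

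The libraries held 24939980 (vehicle), 26362446 (IL-6) and 30773001 (OSM) counts, which are fragments assigned to genes. Levels are given as the authors' fpkm, in which a count is divided by gene length and by the size of its library. Fold changes are ratios of counts scaled with edgeR's TMM factors, with a 95% interval that covers counting error only, because each condition is 1 library. PCR copies could not be told from separate molecules, so the interval can be too narrow even for counting error. The words higher and lower, as a call, mean that the whole of this interval was beyond 2-fold. Defining cardiomyocyte markers were abundant in every library, with 9 genes such as Myh6 and Tnnt2 summing to between 12420 and 15884 fpkm. Of these 9, 0 were called higher with OSM than with vehicle and 1 was called lower. This was Ryr2, with 22606 counts with vehicle and 9264 with OSM (log2 scale -1.53, -1.56 to -1.49). The median for genes of its length was -0.78. By contrast, 7 fibroblast markers summed to 0.816 fpkm with vehicle, 0.648 with IL-6 and 1.06 with OSM. Tcf21, Col1a1 and Postn were at 0 with OSM and Col1a1 also with IL-6, from 2, 6 and 4 counts with vehicle. Dcn had 49 counts with vehicle and 131 with OSM (log2 scale 1.18, 0.69 to 1.68). Pdgfra, Col3a1 and Lum had 40, 15 and 11 counts with vehicle and 34, 14 and 11 with OSM. The 6 endothelial markers summed to between 6.16 and 6.67 fpkm, none of them at 0, and the 6 smooth muscle and pericyte markers to between 13.4 and 15.8 fpkm, mostly from Acta2. The 6 macrophage markers summed to 13.4 fpkm with vehicle, 14.3 with IL-6 and 39.1 with OSM, of which Cd68 made up 37.8 with OSM. Csf1r had 187 counts with vehicle, 166 with IL-6 and 209 with OSM. In the same order, Mrc1 had 2, 14 and 8 counts and Adgre1 8, 0 and 6, while Ptprc and C1qa were at 0 in every library. The 3 T cell markers summed to at most 0.101 fpkm. The part of these other cells in the values of the family was not tested, and in such bulk RNA fewer cells of a type and less RNA per cell cannot be told apart.

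The family was dominated by 1 transcript in every library. Gdf15 stood at 325 fpkm with vehicle, 329 with IL-6 and 457 with OSM, between 93.7% and 94.8% of the summed fpkm of the 10 members. With vehicle, it was followed by the receptor genes Acvr2a (5.37 fpkm) and Tgfbr1 (4.05 fpkm), then by Tgfb1, Tgfb2 and Tgfb3 (2.94, 2.58 and 1.43 fpkm), Fstl3 (0.970 fpkm), Inhba (0.371 fpkm), Inhbb (0.269 fpkm) and Fst (0.0775 fpkm). With OSM, Inhbb moved from the 9th to the 2nd place in this order. With IL-6, the order differed from that with vehicle only in that Inhbb and Inhba exchanged places. With 1 library per condition, no spread between samples stands behind these orders.

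**Figure D1:**
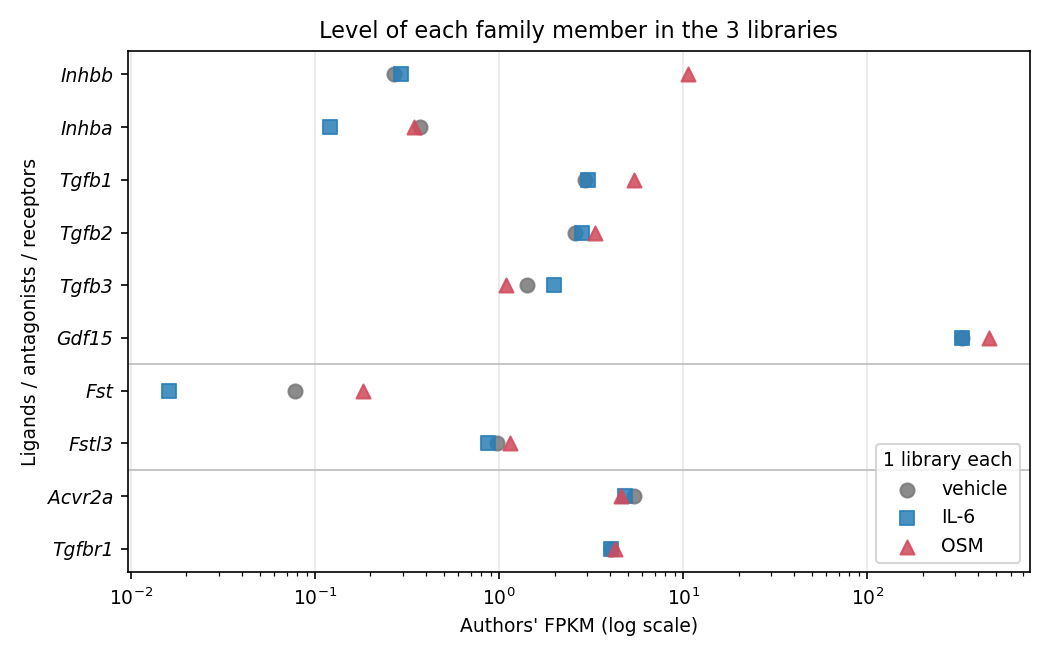
Level of the 10 family members in each library, as the authors' fpkm on a log axis, with 1 point per library (circle, vehicle; square, IL-6; triangle, OSM). Inhbb is near 0.3 fpkm with vehicle and IL-6 and at 10.6 fpkm with OSM, while Gdf15 is between 325 and 457 fpkm in all 3 libraries.

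Of the 10 members, 1 was called higher with OSM than with vehicle and 0 were called lower. Over the 15537 genes compared, these calls took in 3.74% (higher) and 5.43% (lower). The called member was Inhbb. The median log2 fold change of the 10 members was 0.30, against 0.00 for all compared genes, whose middle range ran from -0.53 to 0.45. For 5 members the whole interval lay above 0, for 2 it lay below and for 3 it held 0. With IL-6 against vehicle, 0 of 10 members were called in either direction, where 1.77% of 15472 compared genes were higher and 1.74% were lower, and the median of the members was 0.01. Between the cytokines, 2 members were called higher with OSM than with IL-6 (Inhbb and Fst) and 0 lower, where 4.24% of 15544 genes were higher and 5.42% lower. The comparisons share libraries, so they are not independent of each other.

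Inhbb (ENSMUSG00000037035) encodes the beta B subunit, 2 of which form activin B and 1 of which, joined to an alpha subunit, forms inhibin B. The gene occupies bases 119343195 to 119349978 of chromosome 1 in GRCm39, minus strand, and its canonical transcript has 2 exons with 1233 coding bases. It had 29 counts with vehicle, 34 with IL-6 and 1349 with OSM. The OSM library stood apart from the others, which differed from each other by less than their counting error. OSM against vehicle gave 5.30 on the log2 scale (95% counting interval 4.77 to 5.88), which is 39.3-fold higher (27.3 to 59.0), and 8 of the 15537 compared genes, Inhbb included, had a fold at least as large. Against the IL-6 library it was 5.17 (4.68 to 5.70), and with IL-6 against vehicle it was 0.13 (-0.63 to 0.90). By fpkm, Inhbb ranked 10815 among the 21970 protein-coding genes with vehicle and 3492 with OSM. The vehicle value rests on 29 counts, which sets the width of the interval. No other annotated gene overlaps Inhbb in the deposited coordinates.

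Over the 3 libraries, the genes most like Inhbb in their pair of log2 fold changes (OSM against vehicle, IL-6 against vehicle), among 9434 other protein-coding genes averaging 100 counts or more, were Sec1, Thbd and Timp1. Sec1 had 19, 24 and 794 counts with vehicle, IL-6 and OSM, and lay at a distance of 0.19 log2 units. Thbd, which encodes the anticoagulant receptor thrombomodulin, lay at 0.49, and Timp1, which encodes an inhibitor of matrix metalloproteinases, at 0.64. This likeness is a distance over the same 3 libraries and carries no test.

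Inhba (ENSMUSG00000041324, chromosome 13, 16186436 to 16206206) encodes the beta A subunit of activin A and did not follow Inhbb. It had 60 counts with vehicle, 21 with IL-6 and 66 with OSM. Vehicle and OSM were close together, differing by -0.10 on the log2 scale (-0.63 to 0.42), and IL-6 was the low library. The log2 fold change with IL-6 was -1.61 (-2.41 to -0.88), which lay below 0 but did not pass 2-fold with its whole interval, and that of OSM against IL-6 was 1.51 (0.78 to 2.29). The ratio of Inhbb to Inhba by fpkm was 0.726 with vehicle, 2.43 with IL-6 and 30.7 with OSM. From vehicle to OSM it changed 42.3-fold (95% conditional interval of the odds ratio 24.7 to 72.7), a value that does not depend on how the libraries were scaled. Inha, the alpha subunit gene of the inhibins, had 71, 77 and 51 counts with vehicle, IL-6 and OSM and was not called. Among the transcripts of the 3 inhibin and activin subunit genes, Inhbb made up 10.6% of the summed fpkm with vehicle, 12.6% with IL-6 and 87.6% with OSM.

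**Figure D2:**
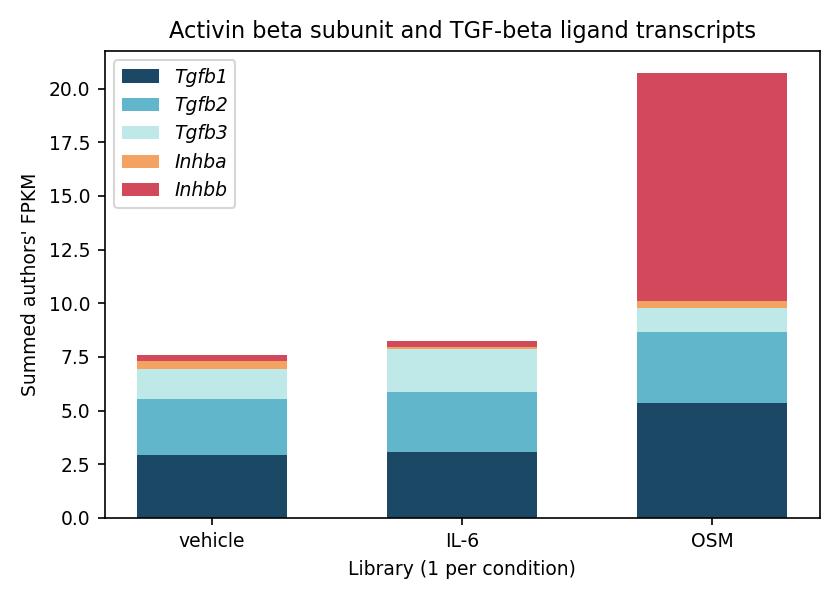
Summed authors' fpkm of the activin beta subunit genes and the TGF-beta genes in each library, stacked by gene, with 1 library per condition and a linear axis from 0. The sum is 7.59 with vehicle, 8.26 with IL-6 and 20.7 with OSM, where Inhbb alone makes up 51.2%.

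The genes of TGF-beta itself had unlike values. Tgfb1 (ENSMUSG00000002603, chromosome 7, 25386427 to 25404502), which encodes the isoform most studied in cardiac fibrosis, had 375 counts with vehicle, 417 with IL-6 and 809 with OSM. The OSM library was the high one, by 0.87 on the log2 scale (0.69 to 1.05), that is 1.82-fold (1.61 to 2.07), and the interval lay above 0 and reached past 2-fold at its upper end only. With IL-6 against vehicle it was 0.05 (-0.15 to 0.26). Tgfb2 (ENSMUSG00000039239, chromosome 1, 186354989 to 186438186), the isoform needed for heart valve formation in the embryo, had 378 counts with vehicle, 442 with IL-6 and 571 with OSM. OSM against vehicle came to 0.35 (0.16 to 0.54) on the log2 scale. The lncRNA gene Gm35546 runs opposite to Tgfb2 over 38422 bases and had 221, 262 and 234 counts, and whether the counting used the strand is not given in the sources used here.

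Tgfb3 (ENSMUSG00000021253, chromosome 12, 86103519 to 86125815) was the isoform gene with the lowest OSM value, with 122 counts with vehicle, 181 with IL-6 and 110 with OSM. Its log2 fold change was -0.39 (-0.78 to -0.01) with OSM and 0.47 (0.13 to 0.81) with IL-6, each against vehicle, and -0.86 (-1.21 to -0.51) for OSM against IL-6. None of these passed 2-fold with its whole interval. Tgfb3 overlaps Ttll5 on the opposite strand over 5149 bases, and Ttll5 had 338, 425 and 233 counts in the same order of libraries, also highest with IL-6 and lowest with OSM. The part of the overlap in the Tgfb3 values was not tested.

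Among the transcripts of the TGF-beta isoforms, Tgfb1 made up 42.3% of the summed fpkm with vehicle, 38.9% with IL-6 and 55.0% with OSM, and Tgfb3 20.5%, 25.2% and 11.2%. The ratio of Tgfb1 to Tgfb3 by fpkm was 2.06 with vehicle and 4.93 with OSM, a change of 2.39-fold (1.78 to 3.22). The ratio of Tgfb1 to Tgfb2 changed 1.43-fold (1.19 to 1.71) between the same libraries. With IL-6 in place of OSM, these changes were 0.750-fold (0.567 to 0.989) and 0.951-fold (0.778 to 1.16).

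Gdf15 (ENSMUSG00000038508, chromosome 8, 71082043 to 71085106) encodes a secreted stress hormone. It had 15216 counts with vehicle, 16496 with IL-6 and 25254 with OSM, and by fpkm it ranked 104, 102 and 99 among the protein-coding genes. IL-6 and vehicle were within counting error, 0.02 apart on the log2 scale (-0.02 to 0.05). The OSM library was higher by 0.49 (0.46 to 0.52) on the log2 scale, or 1.40-fold, which the depth resolves from 0 but which is within 2-fold. Genes as short as Gdf15, which is 1852 bases long, had a median of 0.40 in the same comparison, so Gdf15 lay 0.09 above that median. Gfral, which encodes the GDF15 receptor, had 0 counts in every library, where 3 counts would be 0.0975 to 0.120 CPM, a count scaled to library size.

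The antagonist genes were at low levels. Fst (ENSMUSG00000021765, chromosome 13, 114588826 to 114595487), which encodes follistatin, had 9 counts with vehicle, 2 with IL-6 and 25 with OSM. Its log2 fold change with OSM against vehicle was 1.23 (0.09 to 2.52) and with IL-6 against vehicle -2.27 (-5.52 to 0.00). Against IL-6 the OSM value was called higher, at a ratio of 11.3 with a counting interval of 2.83 to 98.7, and this call rests on 2 counts in the IL-6 library. Fstl3 (ENSMUSG00000020325, chromosome 10, 79613106 to 79618464), which encodes follistatin-like 3, had 60 counts with vehicle, 58 with IL-6 and 84 with OSM, and all of its intervals held 0. Its log2 fold change with OSM against vehicle was 0.24 (-0.25 to 0.75), close to the median of 0.28 of genes of its length. By fpkm, the ratio of Inhbb to Fstl3 was 0.278 with vehicle, 0.337 with IL-6 and 9.23 with OSM, and that of Inhbb to Fst was 3.48, 18.3 and 58.2. From vehicle to OSM these ratios changed 33.2-fold (19.7 to 56.4) and 16.7-fold (6.27 to 41.0).

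The receptor genes differed little between the libraries. Acvr2a (ENSMUSG00000052155, chromosome 2, 48704121 to 48793281), which encodes a type II receptor of activins, had 773 counts with vehicle, 742 with IL-6 and 779 with OSM. Its log2 fold change was -0.23 (-0.38 to -0.08) with OSM and -0.16 (-0.31 to -0.01) with IL-6, so both intervals lay just below 0. Acvr2a overlaps Orc4 on the opposite strand over 446 bases, and Orc4 had 703, 759 and 761 counts. Tgfbr1 (ENSMUSG00000007613, chromosome 4, 47353222 to 47414931), the type I receptor of TGF-beta, had 670 counts with vehicle, 720 with IL-6 and 829 with OSM, at log2 fold changes of 0.07 (-0.08 to 0.21) with OSM and 0.00 (-0.15 to 0.16) with IL-6. The interval of the comparison with OSM reached from 0.944-fold to 1.16-fold, so a larger difference in Tgfbr1 lay outside counting error at this depth.

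**Figure D3:**
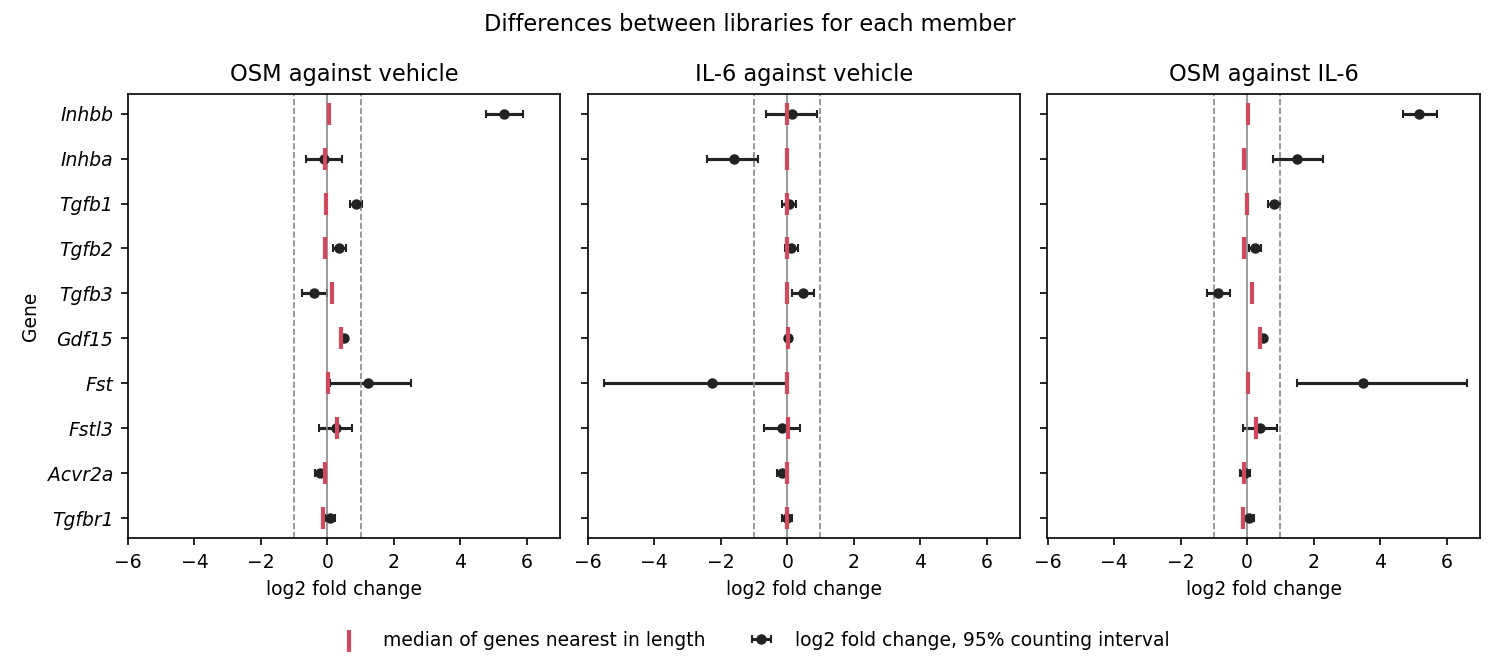
log2 fold change of each member in the 3 comparisons of libraries (black points, with 95% counting intervals), the median of the protein-coding genes nearest in length (red ticks) and the 2-fold limits (dashed). Inhbb lies beyond 2-fold with its whole interval in both comparisons with OSM, and Fst only in that of OSM against IL-6.

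Fold changes with OSM moved with gene length over the whole table. Among 9445 well-counted protein-coding genes, the median for OSM against vehicle on the log2 scale was 0.37 in the shortest genes, of up to 3002 bases, and -0.42 in the longest, of 7227 bases or more. For IL-6 against vehicle these medians were 0.01 and -0.02. The members run from 1852 bases (Gdf15) to 6534 bases (Tgfbr1). Less the median of the 500 genes nearest in length, the log2 fold change with OSM was 5.24 for Inhbb, 0.91 for Tgfb1, 0.44 for Tgfb2, -0.53 for Tgfb3, 0.09 for Gdf15, -0.15 for Acvr2a and 0.20 for Tgfbr1. Inhbb thus kept the highest value of the members, while Gdf15 came near 0, and the source of the trend was not tested.

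**Figure D4:**
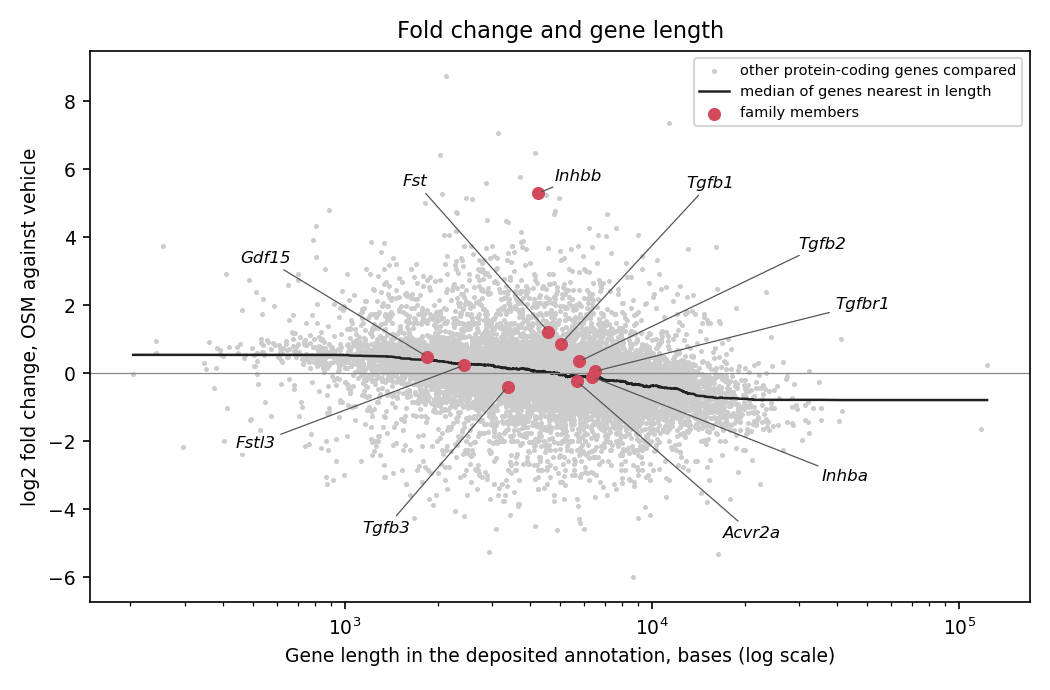
log2 fold change with OSM against vehicle plotted over gene length (log axis) for the compared protein-coding genes (grey), the family members (red, named) and the running median of the genes nearest in length (black line). Gdf15 and Fstl3 lie near the line, and Inhbb lies 5.24 above it.

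The rest of the pathway was read in 7 lists. Over all genes compared between OSM and vehicle, 3.74% were higher and 5.43% lower. The list medians below are not corrected for gene length unless stated. Less the median of genes nearest in length, they were 0.54 (other ligands), -0.37 (other receptors) and 0.19 (SMADs and regulators). They were -0.22 for the latent complex, 0.09 for other antagonists, 0.43 for the TGF-beta and activin response and -0.08 for the BMP response. Of 27 other ligand genes, 14 had 0 counts in every library and 8 were compared between OSM and vehicle, of which 2 were higher and 0 lower, with a median of 0.89. Bmp2, which encodes a bone morphogenetic protein that signals through SMAD1 and SMAD5, had 7 counts with vehicle, 6 with IL-6 and 67 with OSM (log2 scale, OSM against vehicle, 3.02, 1.90 to 4.39). Bmp4, a close relative, had 0, 2 and 21 counts. With 3 counts put in for the 0 it was 5.92-fold higher with OSM than with vehicle. The lower end of its counting interval, from the counts themselves, was 2.14 on the log2 scale. Of the same list, the ligand gene with the highest fpkm was Gdf9, with 135, 177 and 204 counts, which was not called. Bmp7 had 46, 49 and 16 counts, a log2 fold change of -1.77 (-2.69 to -0.92) that was not called.

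Among 16 other receptor and co-receptor genes, 11 were compared, with 1 higher, 0 lower and a median of -0.31. The higher gene was Eng, which encodes endoglin, a co-receptor typical of endothelial cells, with 161 counts with vehicle, 247 with IL-6 and 534 with OSM (1.49, 1.23 to 1.75). The endothelial markers summed to 6.16 fpkm with vehicle and 6.67 with OSM. Bmpr1a, the receptor gene with the highest fpkm, had 2224, 2423 and 1748 counts, and Bmpr2 had 2218, 2372 and 1352, a log2 fold change of -0.96 (-1.05 to -0.86) beside a median of -0.73 for genes of its length. Acvr1b, the type I receptor of activins, had 564, 639 and 982 counts (0.56, 0.41 to 0.71).

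Of 19 genes of SMADs and their regulators, 18 were compared and 0 were called in either direction. Their median was -0.21, or 0.19 less the median of genes nearest in length. Smad4, Ppm1a and Ski had the highest levels, between 14.7 and 22.4 fpkm. Their log2 fold changes with OSM against vehicle were -0.25, -0.24 and -0.54. The medians for genes of their lengths were 0.13, -0.56 and -0.07. Smad1 was the only gene of this list called in any comparison, for OSM against IL-6 (1.21, 1.07 to 1.36), with 594 counts with vehicle, 578 with IL-6 and 1479 with OSM. Against vehicle its value was 1.07 (0.94 to 1.21), which was not called. It was named after its values had been seen. Of 15 genes of the latent complex and its activation, 13 were compared, with 0 higher and 1 lower (median -0.62). This was Ltbp2, which encodes a matrix protein of the latent TGF-beta binding protein family, with 18 counts with vehicle, 1 with IL-6 and 0 with OSM. With 3 counts put in for the 0, Ltbp2 was 7.09-fold lower with OSM, and the upper end of its counting interval was -2.38 on the log2 scale. Ltbp2 was also called lower with IL-6. Furin, whose protease cleaves the precursors of this family, had 3247, 3118 and 3480 counts. Of 22 other antagonist genes, 11 were compared, with 1 higher and 0 lower (median 0.29). This was Nog, which encodes the BMP antagonist noggin, with 85 counts with vehicle, 106 with IL-6 and 307 with OSM (1.61, 1.26 to 1.98).

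Genes known to respond to TGF-beta or activin had 20 compared members of 26, with 4 higher and 1 lower with OSM and a median of 0.28. Over all genes, 3.74% were higher and 5.43% lower in this comparison. The higher genes were Timp1 (203 and 6739 counts with vehicle and OSM), Tsc22d1 (13410 and 55492), Junb (2461 and 8713) and Bhlhe40 (2366 and 7999, named after its values had been seen), and the lower one was Ltbp2, which stands in both lists. Timp1 and Junb are also well-known targets of STAT3. Other textbook SMAD targets were not called between OSM and vehicle, among them Smad7 with 241, 275 and 335 counts (0.23, -0.01 to 0.48) and Ccn2 with 351, 283 and 341 counts (-0.28, -0.50 to -0.06). Col1a1 and Postn, collagen and matrix genes of activated fibroblasts, had at most 6 counts in any library. These SMAD targets were picked after their values had been seen. Of 12 BMP response genes, all 12 were compared, with a median of 0.14, or -0.08 less the median of genes nearest in length. Of these, 0 were lower and 1 was higher. This was Id3, which encodes an inhibitor of differentiation, with 96, 145 and 352 counts (1.63, 1.30 to 1.97), and Id1 had 76, 30 and 216 counts (1.27, 0.88 to 1.66).

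With IL-6 against vehicle, 1 gene over these 7 lists was called, Ltbp2, and the list medians lay between -0.24 and 0.29. For OSM against IL-6, the other ligands had 2 genes higher (Bmp2 and Bmp4) and the other antagonists 2 (Nog and Wfikkn1), with 0 lower in both lists. The SMAD list had 1 higher (Smad1), the other receptors 1 lower (Amhr2) and the latent complex 0 in either direction. In the TGF-beta and activin response list, the 4 genes called higher against vehicle were higher here too and 1 gene was lower (Col1a2), and the BMP response list had 2 higher (Id1 and Hamp). These counts stand beside the 4.24% higher and 5.42% lower over all genes, and Wfikkn1, Amhr2, Col1a2 and Hamp, picked with their values known, had at most 41 counts in any library.

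**Figure D5:**
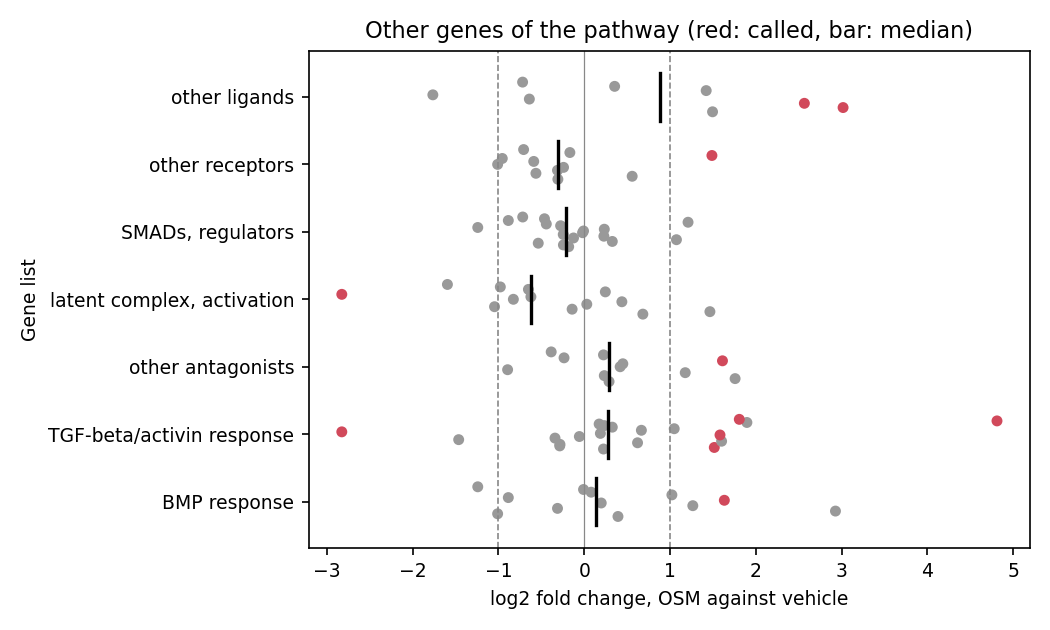
log2 fold change with OSM against vehicle of the compared genes in the 7 pathway lists, 1 point per gene (red, called; grey, not called), with the list median as a bar and the 2-fold limits dashed. Amh and Bmp4 (0 counts with vehicle) and Ltbp2 (0 counts with OSM) are drawn with 3 counts put in for the 0. Timp1 at 4.81 is the point farthest to the right.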

How the data were processed

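Poly(A) RNA of 3 libraries was sequenced as read pairs. Per the labels, the submitters' processing notes name fastp, HISAT2 2.2.1, featureCounts 2.0.6, edgeR 4.0.16 and mm39, and the paper gives other versions of featureCounts and edgeR. The authors deposited a table of raw gene counts, not normalized, and one of FPKM, which equal these counts divided by gene length and 1 constant per library. From the counts, TMM factors were computed for each pair of libraries with edgeR 4.0.16 in R 4.3.3. A comparison needed 10 or more counts in the pair, and the 95% interval of a ratio is the Clopper-Pearson interval of the numerator's count in the sum (SciPy 1.17.1). With 1 library per condition no P-value is given, and the comparison is of libraries, not conditions. Folds against a library at 0 counts were computed with 3 counts put in for the 0 and are not bounds. Starts, exons and sequence came from GENCODE M39 on GRCm39. All 10 members with their values were named. From each pathway list, up to 4 called genes with the largest fold and the 3 with the highest FPKM were eligible, and not all of them are printed. Members and lists were chosen with earlier results of these data known. Alternatives were DESeq2 1.42.0 size factors, total counts, upper-quartile factors, other count minimums, other calling rules, the authors' FPKM, a prior count of 2 and a correction for gene length.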

Additional observations from a re-analysis of the deposited data

How the results depend on the processing

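Inhbb was called higher with OSM than with vehicle, and than with IL-6, under each of the 10 alternatives that recount calls, and its log2 fold change against vehicle lay between 5.21 and 5.33 over the scalings, the prior count and the authors' FPKM. For OSM against vehicle, 2 members were called by the point estimate alone (Inhbb and Fst) and 2 with a limit of 1.5-fold (Inhbb and Tgfb1). For IL-6 against vehicle, these rules called 2 members (Inhba and Fst, lower) and 1 (Inhba, lower). For OSM against IL-6, a minimum of 50 counts left 1 member, edgeR's exact test, assuming a biological coefficient of variation (BCV) of 0.4 between libraries, also left 1 (Inhbb both times), and the limit of 1.5-fold gave 4 (Inhbb, Inhba, Tgfb1 and Fst). Over all genes, the calls numbered 1425 (OSM against vehicle), 543 (IL-6 against vehicle) and 1502 (OSM against IL-6). In that order, a minimum of 50 counts gave 884, 56 and 865, the point estimate 3599, 2058 and 3538, the limit of 1.5-fold 3207, 902 and 3219, and a BCV of 0.4 gave 54, 1 and 77. At that BCV the balance of directions turned, with 43 genes higher and 11 lower for OSM against vehicle and 57 and 20 for OSM against IL-6, where the calls by interval had more lower than higher. A BCV of 0.2 gave 237 for IL-6 against vehicle. Fewer genes or a wider or narrower rule make these differences by construction. Of the members' log2 fold changes, only that of Gdf15 moved past its counting interval, against vehicle with total counts (0.43), upper-quartile factors (0.52) and the length correction (0.09), and against IL-6 with total counts (0.39) and the length correction (0.07). No paired analysis was possible because each condition has 1 library. Depth limits Fst, Inhba and the vehicle value of Inhbb most.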
